A study of Mus musculus with 26 samples.

Results

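Neurotrophins are secreted growth factors that are made as longer precursors and cut to mature forms. Mature ligands signal through the Trk receptor tyrosine kinases, whereas the precursors bind p75NTR together with sortilin. Nerve and Schwann cells are the best known sites of these receptors, but myoblasts also carry p75NTR, and muscle makes neurotrophins that nerve endings take up. Described here are 6 genes of this family out of the 55341 genes counted: the ligands Bdnf (brain-derived neurotrophic factor) and Ntf3 (neurotrophin-3), and the receptors Ngfr (p75NTR), Ntrk2 (TrkB, the main receptor for BDNF), Ntrk3 (TrkC, the main receptor for neurotrophin-3) and Sort1 (sortilin). They were chosen by name, because Ngfr was lower with one siRNA against Smyd3 and not with the other, so the siRNA differences of these genes are given below as a description without a test.

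The cells were C2C12, a mouse myoblast line that stops dividing and fuses into myotubes when serum is lowered. In the siRNA experiment of 18 libraries, cells received a control siRNA (siCtrl) or either of the siRNAs labelled siSMYD3#1 and siSMYD3#2, and RNA was sequenced at 0 h (confluent myoblasts) and at 24 h in differentiation medium with horse serum, with 3 libraries per group. The overexpression experiment of 8 libraries compared cells carrying the empty retroviral vector pREV with SMYD3 CL5, a single clone of cells transduced with HA- and Flag-tagged SMYD3, at the same times, with 2 libraries per group and no siRNA. Each siRNA group held 1 library extracted with TRIzol from cells at passage 11 and 2 extracted with NucleoSpin from cells at passage 14, so extraction method and passage cannot be told apart, and all 8 overexpression libraries were extracted with TRIzol. Counts per library ran from 14315193 to 60398170 in the siRNA experiment and from 21124675 to 67853386 in the overexpression experiment. Smyd3, the targeted gene, was lower with siSMYD3#2 than with siCtrl at 24 h by a log2 fold change of -1.51 ± 0.17 (SE, n = 3 per group, edgeR adjusted p = 5.06e-05), but with siSMYD3#1 the change was -0.24 ± 0.16 (edgeR adjusted p = 0.414), so no lowering of Smyd3 RNA was detected in the libraries labelled siSMYD3#1. SMYD3 protein is not measured in these files. Counts over Smyd3 were not detectably higher in the CL5 libraries either (0.36 ± 0.27 at 24 h, n = 2 per group, edgeR adjusted p = 0.671), and the species of the introduced cDNA is not given in the sources used here. Directions below therefore belong to libraries labelled siSMYD3#1 and SMYD3 CL5, not to a measured loss or gain of Smyd3 RNA.

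The siRNAs are shown because the 6 genes were chosen on the difference between them. These are the antisense (guide) strands from the study's oligonucleotide list, 5′ to 3′ without the overhang, with the seed (bases 2 to 8) in capitals.
siSMYD3#1: gUUGGGGUcacagcuguga
siSMYD3#2: uCAAAUCUucaaucaggcu
siCtrl: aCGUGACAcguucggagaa
Each guide is 19 nt long, and the full complement of both SMYD3 guides, but not of the siCtrl guide, was present in the longest protein-coding Smyd3 transcript of GENCODE M21. The 7-base complement of the siSMYD3#2 seed, AGATTTG, was not found in the Ngfr transcript of 3446 bases, while that of the siSMYD3#1 seed, ACCCCAA, occurred once, in its 3′ UTR from base 1681. Among the other members, AGATTTG occurred once in the 3′ UTR of Sort1 (base 6009) and once in that of Ntrk2 (base 4807). ACCCCAA occurred once in the 3′ UTR of Ntrk3 (base 19221) and once in the coding part of Ntrk2 (base 1590). Of 12620 tested genes with a protein-coding transcript, 23.1% held AGATTTG and 26.9% held ACCCCAA somewhere in the longest transcript. A match of this kind is a description and not a site of action.

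Ngfr lies on chromosome 11 of GRCm38 (95568818 to 95587735, minus strand) and has 1 annotated transcript. SMYD3 protein is known to bind the DNA motifs CCCTCC and GAGGGG, which were searched on both strands of RefSeq promoters (GRCm38.p6, 250 bases before to 50 after each start); the motifs can overlap, as they do at Ngfr. The stretch of the Ngfr promoter with the motif is shown with the match in capitals (chr11:95587763-95587822, minus strand).
Ngfr: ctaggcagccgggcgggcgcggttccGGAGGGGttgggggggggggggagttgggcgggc
The match ran from 98 to 92 bases before the start. It was also present in 3 of 7 listed Bdnf promoters and 1 of 2 Ntf3 promoters, but in none of 1 Ntrk2 promoter, and 48.1% of all 32851 promoters held it. Ntrk3 and Sort1 had no entry.

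Of the 6 genes, 4 were measurable. Ntf3 had 1 count in 1 of 26 libraries, in CL5 cells at 0 h, and Ntrk2 had 0 counts in all 26, where 3 counts correspond to between 0.0442 and 0.21 CPM (counts scaled to the size of the library). Neither passed the filter on low counts, so 4 of 6 members were tested in each experiment, and the levels of the other 2 were not detectable at this depth. Counts were taken per gene, so full-length and truncated forms of Ntrk3 were not separated. Bdnf shares 896 exon bases with Gm45346 and Sort1 shares 338 with Gm12523, both on the opposite strand, and the strand setting of the counting is not given in the sources used here, so reads in those bases cannot be assigned with certainty.

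Per length, as CPM per kilobase of merged exons, Bdnf had the highest mean of the 6 genes in 8 of 10 groups and Ngfr in the other 2, siCtrl and siSMYD3#1 at 0 h. In siCtrl cells at 0 h the level of Ngfr was 0.684 in the TRIzol library and 5.22 and 7.02 in the NucleoSpin libraries, and that of Bdnf was 4.2, 2.70 and 2.37 CPM per kilobase in the same order. The libraries of these neighbouring genes overlapped, so their order did not exceed the spread. By 24 h in siCtrl cells the order of means was Bdnf, Sort1, Ngfr, again with overlap between neighbours. By mean, Ntrk3 came last of the measurable genes in all 10 groups. With siSMYD3#2 at 24 h its libraries overlapped with those of Ngfr. Its level was 0.0505 ± 0.0106 CPM per kilobase in siCtrl cells at 0 h (SD, n = 3), with all exons of its 20 transcripts counted in the length. Without division by length the order can differ, as in vector cells at 0 h, where Ntrk3 stood above Sort1. By mean CPM it also stood above Ngfr at 24 h with siSMYD3#2 and in CL5 cells.

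**Figure D1:**
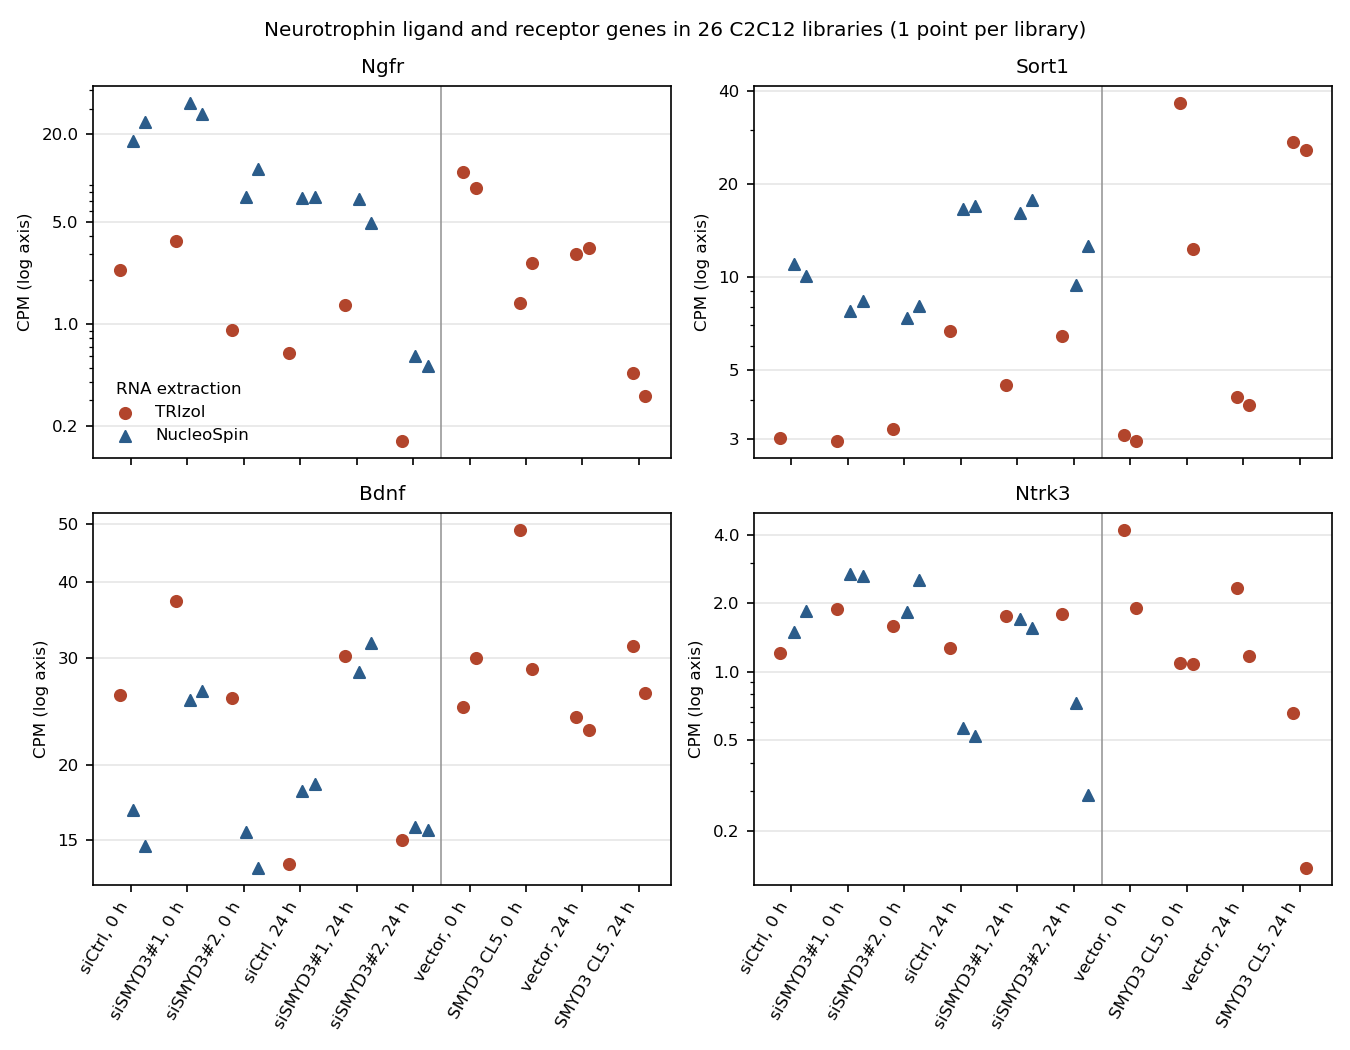
Level of Ngfr, Sort1, Bdnf and Ntrk3 in each of 26 libraries, in CPM on a log axis, by group and RNA extraction method. Ngfr in siSMYD3#2 cells at 24 h lies at 0.606 CPM or less, and Sort1 in CL5 cells lies at 12.3 CPM or more, above every vector library.

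What happened to these genes during early differentiation was asked in siCtrl cells. By the study's methods, siRNA was transfected again when differentiation was induced. A part of that transfection in the changes cannot be told apart from that of the medium. Ngfr fell by 24 h and Sort1 rose, while Bdnf and Ntrk3 did not pass the test. Ngfr went from 2.36, 18 and 24.2 CPM at 0 h (TRIzol, then NucleoSpin) to 0.633, 7.36 and 7.44 CPM at 24 h. Each method gave the lower level at 24 h, although the pooled groups overlapped because the TRIzol library at 0 h lay below the NucleoSpin libraries at 24 h. The log2 fold change was -1.56 ± 0.23 (SE, n = 3 per group, edgeR adjusted p = 3.31e-05), and within the methods the log2 ratio of mean CPM was -1.51 for NucleoSpin and -1.90 for TRIzol. Sort1 went from 3.02, 11 and 10.1 CPM to 6.68, 16.6 and 17.0 CPM in the same order. This is a log2 fold change of 0.79 ± 0.18 (n = 3 per group, edgeR adjusted p = 0.00192), with ratios of 0.67 and 1.15 within NucleoSpin and TRIzol. In these bulk libraries, fewer cells of a type and less RNA per cell cannot be told apart. Over all 15820 genes tested, 29.4% passed the threshold of 0.01, with 2 of the 4 members, so a call was common among all genes in this comparison.

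Bdnf stood at 26.1, 16.8 and 14.7 CPM at 0 h and at 13.7, 18.1 and 18.6 CPM at 24 h. It was lower at 24 h in the TRIzol pair and higher in the NucleoSpin pairs, and its log2 fold change was -0.15 ± 0.20 (n = 3 per group, edgeR adjusted p = 0.571). Ntrk3 stood at 1.21, 1.5 and 1.85 CPM at 0 h and at 1.27, 0.570 and 0.522 CPM at 24 h. It differed in the NucleoSpin libraries, with a log2 ratio of -1.62, but not in the TRIzol pair, where it was 0.06. Its log2 fold change was -0.95 ± 0.43 over all libraries (n = 3 per group, edgeR adjusted p = 0.0841) and -1.65 ± 0.36 with the NucleoSpin libraries alone (n = 2 per group, edgeR adjusted p = 0.0014).

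Without a term for the extraction method the log2 fold changes were about as large, but their errors were wider and neither gene passed. Ngfr then gave -1.55 ± 1.05 (edgeR adjusted p = 0.346) and Sort1 0.73 ± 0.59 (edgeR adjusted p = 0.441). The summed level of 6 differentiating muscle markers (Myog, Mymk, Myh3, Ckm, Acta1, Tnnt3) rose from between 5.78 and 7.51 to between 422 and 1350 CPM in these cells, and all 6 passed the test.

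Of the 58 other genes listed for this pathway, 47 were tested in siCtrl cells, of which 11 rose and 2 fell from 0 h to 24 h, or 27.7%, against 29.4% of all genes. The median log2 fold change was 0.11 for the list and 0.03 for all genes. Ntf5 (neurotrophin-4, a further TrkB ligand) had between 0.184 and 0.634 CPM at 0 h and between 0.457 and 1.23 CPM at 24 h, and its change of 1.12 ± 0.40 did not pass (n = 3 per group, edgeR adjusted p = 0.0307).

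Of 9 other receptors and coreceptors, 6 were tested, 2 rose and none fell by edgeR. These were Sorcs2, a sortilin relative that binds proneurotrophins, at 1.10 ± 0.10 (n = 3 per group, edgeR adjusted p = 1.81e-07), and Sirpa, a transmembrane protein phosphorylated after Trk activation, at 2.19 ± 0.28 (edgeR adjusted p = 1.44e-05). Among 17 tested p75NTR partners and cleavage genes, 5 rose and 2 fell, and the one past a log2 fold change of 1 was Psen2, a catalytic subunit of the γ-secretase that cuts p75NTR, at 1.24 ± 0.13 (n = 3 per group, edgeR adjusted p = 7.53e-07). Of 18 tested Trk adaptors 3 rose, and of 5 tested proneurotrophin proteases 1 rose.

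**Figure D2:**
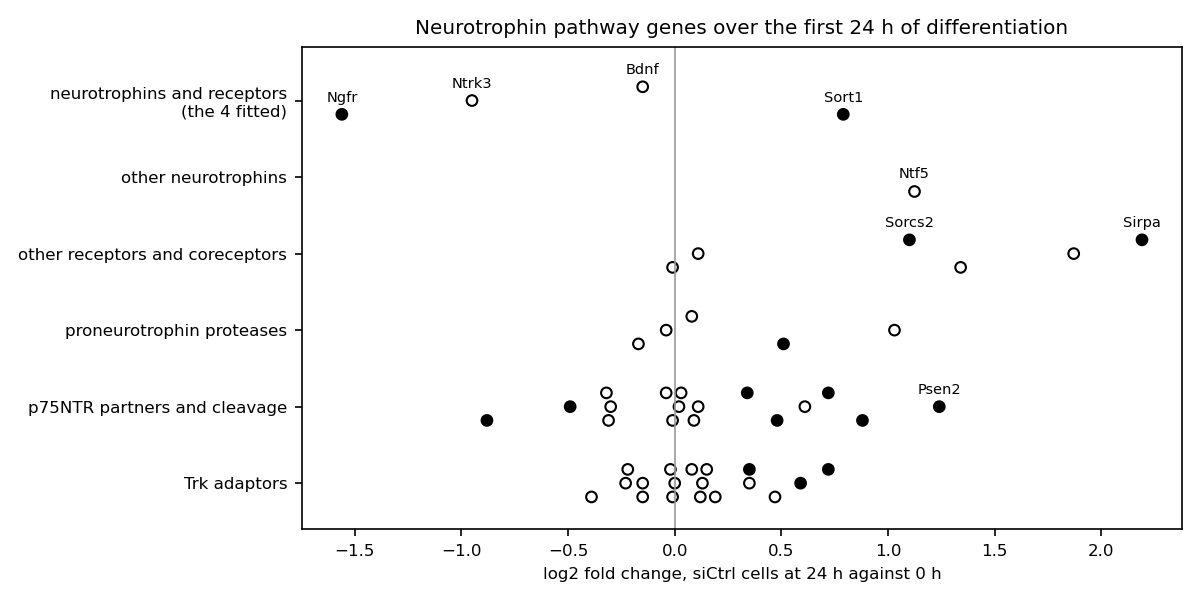
Log2 fold change from 0 h to 24 h in siCtrl cells (x axis) for each tested gene of the neurotrophin pathway by list, with filled points for an edgeR adjusted p under 0.01. Ngfr at -1.56 lies at the low end and Sirpa at 2.19 at the high end.

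In the empty-vector cells of the second experiment, the differences of Ngfr and Sort1 over time had the same signs but did not pass. Ngfr was at 11 and 8.61 CPM at 0 h and at 3.01 and 3.31 CPM at 24 h, without overlap, and its log2 fold change was -1.63 ± 0.38 (n = 2 per group, edgeR adjusted p = 0.412). Sort1 was at 3.08 and 2.94 CPM and then at 4.08 and 3.85 CPM, again without overlap, with 0.40 ± 0.46 (n = 2 per group, edgeR adjusted p = 0.932). No gene passed here with edgeR, so percent called was 0 of 17835 genes tested. There were 1256 genes at an unadjusted p under 0.05, Ngfr among them (unadjusted p = 0.00322), and DESeq2 called 119. The summed muscle markers were between 2.79 and 5.96 CPM at 0 h and between 30.7 and 42.7 CPM at 24 h, and none of the 6 passed.

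In CL5 cells Ngfr was at 1.39 and 2.61 CPM at 0 h and at 0.462 and 0.322 CPM at 24 h. Both 24 h libraries were below both 0 h libraries, at a log2 fold change of -2.30 ± 0.43 (n = 2 per group, edgeR adjusted p = 0.33). DESeq2 gave -2.34 (n = 2 per group, DESeq2 adjusted p = 0.0012). Sort1 was at 36.6 and 12.3 CPM and then at 27.4 and 25.8 CPM, with overlap and a change of 0.12 ± 0.44 (n = 2 per group, edgeR adjusted p = 0.965). Here too percent called was 0 with edgeR, with 1137 genes at an unadjusted p under 0.05 and 109 called by DESeq2.

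How the CL5 clone differed from vector cells was compared at each time. The clone had less Ngfr and more Sort1 in every library, by several-fold, but with 2 libraries per group neither gene passed 0.01 in edgeR, while both passed in DESeq2. At 0 h, Ngfr at 1.39 and 2.61 CPM in CL5 stood against 11 and 8.61 CPM in vector cells, a log2 fold change of -2.29 ± 0.39 (n = 2 per group, edgeR adjusted p = 0.0245, DESeq2 adjusted p = 1.27e-05). At 24 h, 0.462 and 0.322 CPM stood against 3.01 and 3.31 CPM, or -2.96 ± 0.43 (n = 2 per group, edgeR adjusted p = 0.0137, DESeq2 adjusted p = 2.59e-07). The 4 CL5 libraries thus lay below the 4 vector libraries at matched times, and the CL5 libraries at 0 h also lay below the vector libraries at 24 h.

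Sort1 differed in the other direction. At 0 h it was at 36.6 and 12.3 CPM in CL5 against 3.08 and 2.94 CPM in vector cells, a log2 fold change of 3.02 ± 0.49 (n = 2 per group, edgeR adjusted p = 0.0186, DESeq2 adjusted p = 8.1e-09). At 24 h it was at 27.4 and 25.8 CPM against 4.08 and 3.85 CPM, or 2.75 ± 0.48 (n = 2 per group, edgeR adjusted p = 0.0265, DESeq2 adjusted p = 3.25e-07). The CL5 libraries at 0 h lay far apart from each other, and both exceeded every vector library.

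Ntrk3 was at 1.09 and 1.08 CPM in CL5 at 0 h against 4.21 and 1.90 CPM in vector cells, and at 0.657 and 0.138 against 2.33 and 1.17 CPM at 24 h. No CL5 library reached the vector range at either time, but the log2 fold changes of -1.49 ± 0.68 and -1.99 ± 0.71 did not pass (n = 2 per group, edgeR adjusted p = 0.3 and 0.247). Bdnf was at 48.9 and 28.8 CPM against 24.9 and 30 CPM at 0 h, with overlap, and at 31.4 and 26.3 against 24.0 and 22.8 CPM at 24 h. Its log2 fold changes were 0.50 ± 0.29 and 0.30 ± 0.29 (n = 2 per group, edgeR adjusted p = 0.399 and 0.758). Over all 17835 genes, edgeR called 1.07% at 0 h and 0.964% at 24 h, with 0 of the 4 members. At an unadjusted p under 0.05 there were 2 members among 3258 genes at 0 h, and 3 members among 2488 genes at 24 h. DESeq2 called 2 members at each time, among 1041 genes at 0 h and 880 at 24 h.

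Whether the clone's difference depended on time was tested by an interaction, and none of the 4 members passed (edgeR adjusted p = 1 for each). For Ngfr the difference at 24 h minus that at 0 h was -0.67 ± 0.56 and for Sort1 it was -0.28 ± 0.64 on the log2 scale (n = 2 per group, edgeR adjusted p = 1). No gene of 17835 passed this test in edgeR, with 312 at an unadjusted p under 0.05 and 2 called by DESeq2.

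The summed muscle markers also differed between CL5 and vector cells. In CL5 cells they were already between 85.9 and 498 CPM at 0 h and between 995 and 1030 CPM at 24 h, far above the vector libraries at both times. The neuron marker list was lower in CL5, between 15.6 and 21 against between 123 and 268 CPM, and this sum was nearly all Stmn2, which at 24 h had a log2 fold change of -3.15 ± 0.38 (n = 2 per group, edgeR adjusted p = 0.00681), whereas Rbfox3, Snap25 and Elavl4 had at most 3 counts in any library. The part of these in the differences of Ngfr and Sort1 was not tested.

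Of the pathway lists, 45 genes were tested in CL5 against vector cells and 1 passed at each time, Pcsk6, a proprotein convertase, with a median of -0.18 for the lists and 0.02 for all genes at 24 h. Pcsk6 had between 2.86 and 4.82 CPM in vector cells at 24 h and 0 counts in both CL5 libraries, so it was at least 20.1-fold lower, taking 3 counts per library as the floor (edgeR adjusted p = 0.00587). At 0 h it had at most 1 count in CL5 against between 4.49 and 7.28 CPM, or at least 55.3-fold lower by the same floor (edgeR adjusted p = 0.0055).

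**Figure D3:**
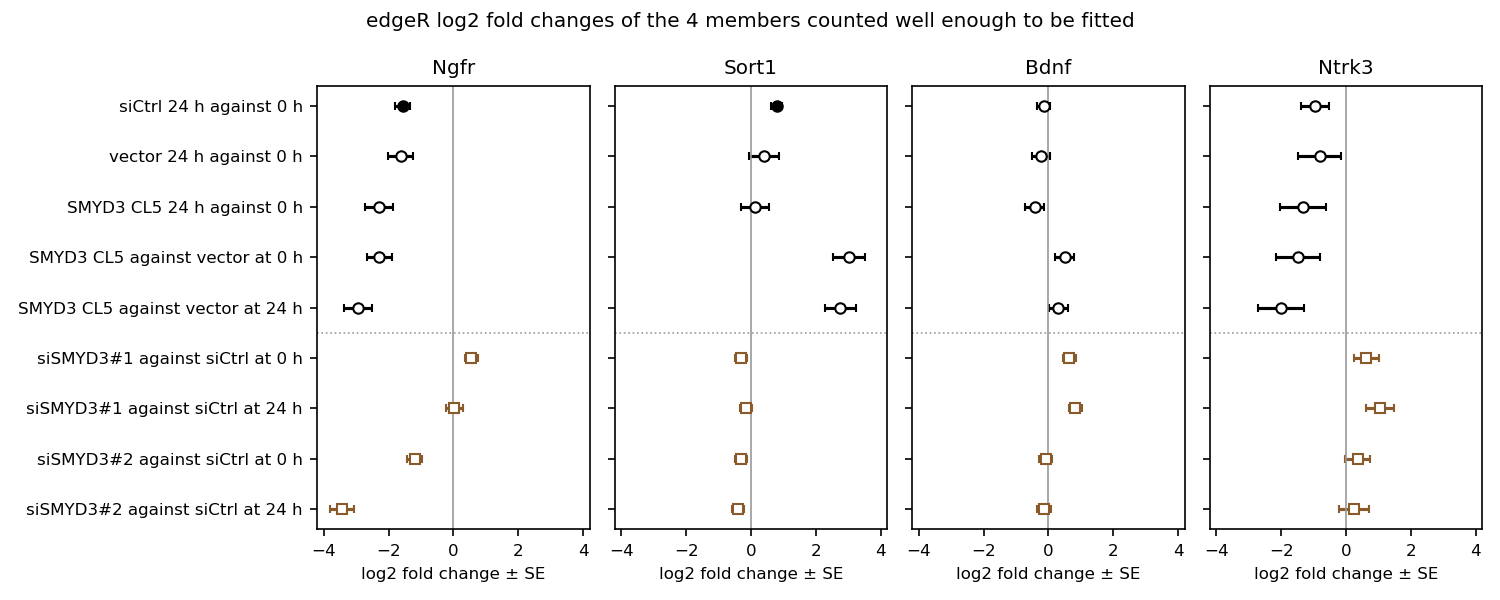
Log2 fold change with its SE (x axis) of Ngfr, Sort1, Bdnf and Ntrk3 in 9 comparisons, with circles above the dotted line for tested comparisons (filled for an edgeR adjusted p under 0.01) and open squares below it for the siRNA comparisons that chose the genes. Ngfr lies at -2.29 and -2.96 in CL5 against vector, and Sort1 at 3.02 and 2.75.

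The siRNA values that chose these genes are now described, without a test. With siSMYD3#2 at 24 h, Ngfr was at 0.157 CPM (TRIzol, 4 counts), 0.606 and 0.519 CPM (NucleoSpin, 10 and 9 counts). With siCtrl it was at 0.633, 7.36 and 7.44 CPM, and with siSMYD3#1 at 1.35, 7.18 and 4.95 CPM. All 3 siSMYD3#2 libraries were below all the others at 24 h, and the siSMYD3#1 libraries overlapped with siCtrl. The log2 fold change against siCtrl was -3.44 ± 0.36 for siSMYD3#2 and 0.03 ± 0.25 for siSMYD3#1 (SE, n = 3 per group), and siSMYD3#2 against siSMYD3#1 gave -3.47 ± 0.36.

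At 0 h, Ngfr was at 0.917, 7.43 and 11.5 CPM with siSMYD3#2 (TRIzol, then NucleoSpin), at 2.36, 18 and 24.2 CPM with siCtrl, and at 3.72, 32.8 and 27.6 CPM with siSMYD3#1. Within each extraction method the order was siSMYD3#2, siCtrl, siSMYD3#1, and against siCtrl the log2 fold changes were -1.19 ± 0.23 and 0.55 ± 0.21 (n = 3 per group). From 0 h to 24 h, Ngfr was lower within each siRNA, by -2.08 ± 0.24 with siSMYD3#1 and -3.82 ± 0.35 with siSMYD3#2 on the log2 scale (n = 3 per group). The comparisons of each siRNA with siCtrl share the siCtrl libraries.

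Within the methods, the log2 ratio of Ngfr with siSMYD3#2 to siCtrl at 24 h was -3.72 for NucleoSpin and -2.01 for TRIzol, and at 0 h it was -1.16 and -1.36. With siSMYD3#1 at 24 h the methods disagreed in sign, at -0.29 and 1.09. The TRIzol library was lower in Ngfr than the mean of the NucleoSpin libraries in 6 of 6 siRNA groups, by a log2 ratio between -3.55 and -1.84, and lower in Sort1 in 6 of 6, between -1.92 and -0.77. Summed myoblast markers (Myod1, Myf5, Des, Cdh15, Vcam1) were also lower with TRIzol, between 255 and 300 against between 1210 and 1560 CPM at 0 h. Much of this gap was Des, which ran from 67.3 to 945 CPM in siCtrl cells at 0 h. Myf5 and Vcam1 did not share it, at between 82.2 and 90.9 and between 46 and 55.8 CPM in the same libraries. The part of the method, the passage or the myoblast markers in the level of Ngfr was not tested.

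**Figure D4:**
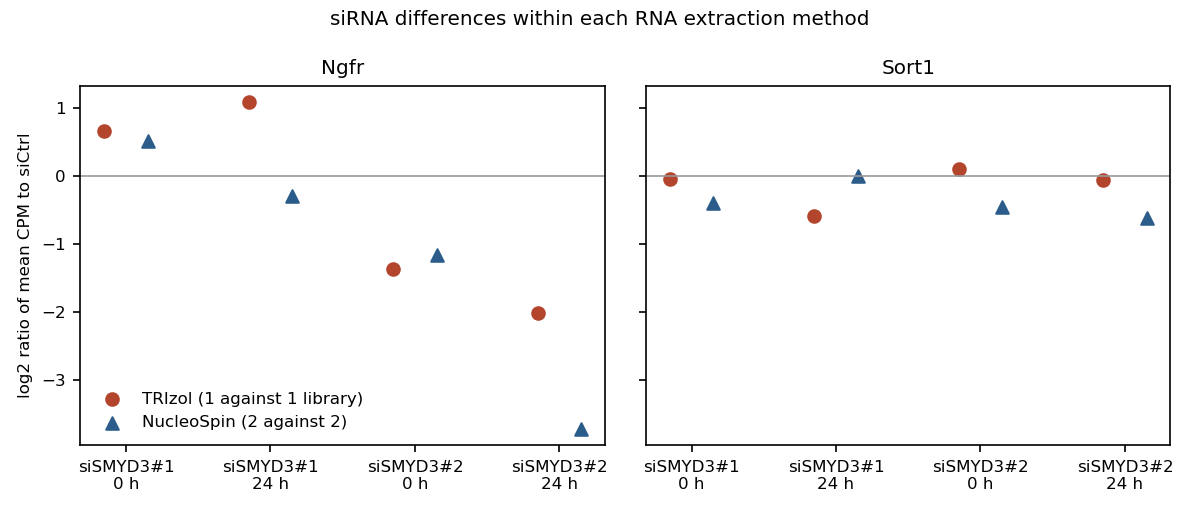
Log2 ratio of mean CPM to siCtrl (y axis) for Ngfr and Sort1 with each siRNA and time, for TRIzol (1 against 1 library, circles) and NucleoSpin (2 against 2 libraries, triangles). Ngfr with siSMYD3#2 lies between -3.72 and -1.16 by both methods, while Sort1 lies between -0.61 and 0.10.

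The other members are described in the same way. They are not ranked against Ngfr, since its siRNA difference was the reason for the choice. With siSMYD3#1 at 24 h, Bdnf was at 30.2 CPM (TRIzol), 28.4 and 31.8 CPM (NucleoSpin), against 13.7, 18.1 and 18.6 CPM with siCtrl and 15, 15.8 and 15.6 CPM with siSMYD3#2. The siSMYD3#1 libraries thus lay above all the others, with a log2 fold change against siCtrl of 0.83 ± 0.20, while siSMYD3#2 gave -0.13 ± 0.21 (n = 3 per group). At 0 h the values for Bdnf were 0.65 ± 0.20 and -0.08 ± 0.20 on the log2 scale. With siSMYD3#1 the pooled groups overlapped only across the methods, and within each method every siSMYD3#1 library was higher, at 37.2 against 26.1 CPM for TRIzol and at 25.6 and 26.5 against 16.8 and 14.7 CPM for NucleoSpin.

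Ntrk3 with siSMYD3#1 at 24 h was at 1.75, 1.70 and 1.56 CPM against 1.27, 0.570 and 0.522 CPM with siCtrl, without overlap and at 1.05 ± 0.44. With siSMYD3#2 it was at 1.80, 0.728 and 0.288 CPM, overlapping with siCtrl at 0.26 ± 0.46 (n = 3 per group). That sign rests on single libraries, since the value was -0.74 without the TRIzol library of siSMYD3#2 and 0.85 without that of siCtrl. With siSMYD3#1 the value was 1.6 without the TRIzol library of siCtrl. At 0 h Ntrk3 was at 1.89, 2.69 and 2.63 CPM with siSMYD3#1, against 1.21, 1.5 and 1.85 CPM with siCtrl, without overlap. With siSMYD3#2 it was at 1.59, 1.83 and 2.53 CPM at 0 h, overlapping with siCtrl. Sort1 with siSMYD3#2 at 24 h was at 6.47, 9.40 and 12.6 CPM and with siSMYD3#1 at 4.48, 16.1 and 17.8 CPM, against 6.68, 16.6 and 17.0 CPM with siCtrl. All pooled groups overlapped, at log2 fold changes of -0.40 ± 0.19 and -0.16 ± 0.18. For siSMYD3#2 the overlap was only across the methods. Both of its NucleoSpin libraries lay below both of siCtrl, while the TRIzol pair was close, at 6.47 against 6.68 CPM. Without its TRIzol library, Sort1 with siSMYD3#2 was at -0.68, and without 1 of its NucleoSpin libraries at -0.20. At 0 h Sort1 was at 3.23, 7.39 and 8.05 CPM with siSMYD3#2 and at 2.94, 7.74 and 8.35 CPM with siSMYD3#1. With siCtrl it was at 3.02, 11 and 10.1 CPM, so both siRNAs gave lower values in the NucleoSpin libraries.

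Over all genes, edgeR called 1.43% with siSMYD3#1 at 0 h, 5.85% with siSMYD3#1 at 24 h, 0.531% with siSMYD3#2 at 0 h and 3.70% with siSMYD3#2 at 24 h, and of the 4 members it called 0, 0, 0 and 1. At an unadjusted p under 0.05 there were 2, 2, 1 and 2 members, beside 2196, 3815, 1596 and 3530 of 15820 genes. DESeq2 called 0, 1, 1 and 1 members. The percentages rest on 226, 926, 84 and 586 genes. Without 1 library at a time these became 74 to 159, 484 to 1051, 29 to 62 and 194 to 574, and at 24 h the lower counts came without any 1 of the NucleoSpin libraries. DESeq2 called 523, 1353, 205 and 1045 genes. Since these comparisons chose the genes, nothing is read from the counts of members.

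The summed muscle markers at 24 h were between 422 and 1350 CPM with siCtrl, between 53.9 and 109 with siSMYD3#1 and between 193 and 217 with siSMYD3#2. They were therefore lowest with siSMYD3#1, where Ngfr overlapped with siCtrl, and intermediate with siSMYD3#2, where Ngfr was lowest, and their part in the level of Ngfr was not tested. Of 47 tested pathway genes, 3 rose and 4 fell with siSMYD3#1 at 24 h, and none rose and 2 fell with siSMYD3#2 by edgeR. These are 14.9% and 4.26% of the genes tested from the lists, beside 5.85% and 3.70% of all genes. The calls with siSMYD3#1 included 2 genes named above. Pcsk6 rose, to a mean of 16.5 against 7.76 CPM with siCtrl, and Psen2 fell, to 9.09 against 13.7 CPM. Those that fell with siSMYD3#2 were Sirpa, at -1.21 ± 0.26 (n = 3 per group, edgeR adjusted p = 0.00928, and 0.0156 with the replicate as a block), and the Trk adaptor Shc2, at -0.49 ± 0.10 (edgeR adjusted p = 0.00442).

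The marker lists of other cell types that carry p75NTR were low or rested mostly on a single gene. Of 7 Schwann cell and neural crest markers, Foxd3 had 0 counts in all libraries and Sox10 at most 3, and the list summed to between 1.49 and 21.4 CPM. Its member Erbb3, a neuregulin receptor, rose from 0 h to 24 h in siCtrl cells by 2.88 ± 0.31 on the log2 scale (n = 3 per group, edgeR adjusted p = 1.08e-06). The 4 endothelium and mural markers summed to between 28.5 and 76.4 CPM, nearly all of it Cspg4. In siCtrl cells at 0 h Cspg4 had between 33.9 and 57.9 CPM, Pecam1 at most 0.0366 and Cdh5 at most 0.0736 CPM. The neuron list summed to between 15.6 and 268 CPM over all libraries, nearly all of it Stmn2.

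The genes whose pattern was most like that of Ngfr over the 18 siRNA libraries, by Pearson's r of log2(CPM + 1) after subtraction of the mean of each extraction method, were Mcl1 (r = 0.944), Dot1l (0.921), Sema7a (0.919), Csf2rb2 (0.917) and Tmem248 (0.915), among 12691 genes compared. The libraries share depth, siRNA and time, so these are descriptions. Their fitted changes with siSMYD3#2 at 24 h ran from -0.18 ± 0.11 for Tmem248 to -2.30 ± 0.50 for Csf2rb2. They are not ranked against the change of Ngfr, on which the genes were chosen. The value for Csf2rb2 mixes the methods. With siSMYD3#2 at 24 h it had 0 and 1 counts in the NucleoSpin libraries, against 1.05 and 1.11 CPM with siCtrl. In the TRIzol pair it was at 0.627 against 1.51 CPM. Its change in the NucleoSpin libraries thus lies at the floor, and its size there is not ranked against that of Ngfr. Over the 8 overexpression libraries r with Ngfr was -0.535 for Mcl1, -0.719 for Dot1l, 0.647 for Sema7a, 0.155 for Csf2rb2 and -0.085 for Tmem248. In that experiment Mcl1 and Dot1l thus had the opposite sign, and the values of Csf2rb2 and Tmem248 were too small to give a direction. Among the members, r with Ngfr was 0.707 for Ntrk3, 0.346 for Bdnf and -0.405 for Sort1 over the siRNA libraries, and 0.888, -0.298 and -0.869 over the overexpression libraries. Without subtraction of the method mean, the 5 most alike were other genes (Tmem183a, Dact1, Minos1, H2afy and Csnk1e).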

How the data were processed

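The authors sequenced stranded poly(A) libraries of C2C12 cells, and the submitters' processing notes name FastQC 0.11.5, HISAT2 2.1.0 and featureCounts of Subread 1.6.3 with GRCm38. The deposited values are raw counts per gene for each of 26 libraries. The strand setting and annotation release are not given in the sources used here. Genes were matched by Ensembl identifier to GENCODE M21 (54495 of 55341), and no 2 libraries held identical values.

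Counts were tested with edgeR 4.0.16 (quasi-likelihood, robust, TMM, filterByExpr) in R 4.3.3: 15820 genes in 1 fit of the 6 siRNA groups with extraction method as a covariate, and 17835 genes in 1 fit of the 4 overexpression groups. P-values were adjusted over all tested genes by Benjamini-Hochberg and called under 0.01, the threshold of the study's methods. CPM are TMM-scaled within each experiment. Standard errors were derived from the log2 fold change and its F statistic. The fits were tested on simulated data. Low counts widen the errors: Ngfr had as few as 4 counts in a library. The study's methods call the replicates biological, and p-values measure the spread between these libraries.

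The members and lists were chosen with earlier results of these data known, and some genes first placed on the pathway lists are not reported here. Named genes were the members, Smyd3, Ntf5, marker genes, the 5 genes most like Ngfr, and pathway genes past 0.01 in CL5 against vector at 24 h or past 0.01 with a log2 fold change of at least 1 in siCtrl cells; Shc2 was named after its value was seen, as were the 5 genes most like Ngfr on the other scale. Replicate numbers in the study's sample table were used to match the siRNA libraries across groups. Deviations of same-numbered libraries from their group means correlated at between 0.488 and 0.913. The extraction method was not removed from these deviations, so the values cannot tell pairing from the method. Alternatives were DESeq2 1.42.0, RLE normalization, no low-count filter, a replicate block, no extraction term, NucleoSpin alone, all 26 libraries in one fit, and leaving out each library.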

Additional observations from a re-analysis of the deposited data

How the results depend on the processing

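In siCtrl cells the calls of Ngfr and Sort1 by 24 h, but not the size of their changes, depended on the extraction term: without it the log2 fold change of Ngfr was -1.55 with an SE of 1.05 in place of 0.23 (edgeR adjusted p = 0.346), and that of Sort1 was 0.73 (0.441). With all 26 libraries in one fit Sort1 gave 0.79 (0.0366). With NucleoSpin libraries alone Bdnf turned to 0.20 and Ntrk3 passed at -1.65. The number of genes past 0.01, 4655, was 1676 without the extraction term and 2838 with all 26 libraries.

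In the overexpression experiment the calls depended on the tool, the filter and the libraries fitted together. With DESeq2, no low-count filter and all 26 libraries in that order, CL5 against vector at 0 h gave -2.22, -2.23 and -2.22 for Ngfr and 3.07, 3.07 and 3.09 for Sort1, all past 0.01, and 1041, 1246 and 1995 genes in place of 191; DESeq2 split its calls into 625 higher and 416 lower, edgeR into 83 and 108. At 24 h they gave -2.96, -2.95 and -2.90 for Ngfr and 2.75, 2.75 and 2.77 for Sort1, all past 0.01, and 880, 1032 and 1334 genes in place of 172, and Ntrk3 passed without the filter at -1.97. From 0 h to 24 h in CL5 cells Ngfr passed at -2.34, -2.33 and -2.28, with 109, 216 and 128 genes, and in vector cells it passed with all 26 libraries at -1.59, with 119, 203 and 171 genes. The interaction gave 2 genes with DESeq2 and 12 without the filter. The cause was not tested.

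Leaving out 1 library at a time, where a lone library is assumed to vary like the other groups, gave these ranges. In siCtrl cells Sort1 ran from 0.65 to 0.88 and lost its call without the TRIzol library at 0 h (edgeR adjusted p = 0.0168), and Bdnf ran from -0.28 to 0.09, turning positive without the TRIzol library of either time. In CL5 cells over time Ngfr ran from -2.67 to -1.76, passing without the 0 h library at 1.39 CPM of Ngfr (edgeR adjusted p = 0.00533), Bdnf from -0.77 to 0.00 and Sort1 from -0.47 to 1.11, with 0 to 981 genes past 0.01. Against vector at 0 h, Ngfr ran from -2.76 to -1.91 and Sort1 from 2.04 to 3.66, both passing without either CL5 library, with 0 to 2382 genes; at 24 h there were 0 to 8 genes and no member passed. Bdnf at 0 h ran from 0.07 to 0.89, the lower without the CL5 library at 48.9 CPM, and Ntrk3 at 24 h from -3.63 to -1.40, the former without the CL5 library at 0.657 CPM. The interaction ran from -1.04 to -0.14 for Ngfr, -0.55 to 0.24 for Bdnf, -2.13 to 0.09 for Ntrk3 and -0.88 to 0.71 for Sort1.

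Ngfr with siSMYD3#1 at 24 h ran from -0.20 to 0.28 when 1 library was left out, -0.19 without the extraction term and -0.24 with NucleoSpin alone. With siSMYD3#2 at 24 h it ran from -3.62 to -3.23, -3.63 and -3.69 under the same alternatives.

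With the replicate as a block, siCtrl 24 h against 0 h gave 4457 genes, and CL5 against vector 231 at 0 h and 228 at 24 h. In the overexpression experiment same-numbered libraries correlated at between -0.031 and 0.574 and share only a number. The block changed no call of a member in either experiment.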
